A study of Mus musculus with 12 samples.

Results

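The receptor genes described here encode the subunits of the receptors for glutamate, GABA and glycine, the main fast transmitters of the central nervous system, in mouse cells of the superior cervical ganglion (SCG), which is a sympathetic ganglion in the neck. A fixed list of 40 genes was followed, and 38 of them had a probe set on the array that carries their symbol alone, out of 18193 genes with such a probe set. Grin1 and Gabbr2 were not analysed here. For 26 of the 38 genes several probe sets were present, and the brightest by its mean over the 12 arrays was used. Messenger RNA was measured in freshly dissected SCG tissue, in SCG cells cultured in polystyrene scaffolds (3D) and in SCG cells cultured on a flat substrate (2D), both for 5 days, with 4 biological replicates in each group. All donors were CD1 mice, given as 21 days old in the labels and as neonatal in the methods. Both cultures held dissociated cells and small cell clumps of pooled ganglia on collagen, in medium with serum and nerve growth factor, and the flat substrate is a polystyrene dish in the labels and a glass bottom dish in the methods. The tissue was the whole ganglion, so that every group mixed neurons with glia and other cells.

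Expression levels are log2 values made with the RMA algorithm, which normalizes by quantiles. The deposited values of the arrays were nevertheless not on 1 distribution, as given below. RMA gives no call of detection. A level near the bottom of the scale therefore cannot be told from background, and levels of different genes were not ranked. A difference of 1 on this scale is a doubling. Genes with a mean level of at least 6 over the 12 arrays are called bright below, and 16 of the 38 receptor genes were bright and 22 were dim. Of 10 sympathetic neuron genes, 8 were higher in tissue than in 3D and 4 higher than in 2D, where 15.5% and 9.87% of all genes were. Slc6a2, the noradrenaline transporter, averaged 13.83 in tissue, 11.57 in 3D and 12.34 in 2D, while Dbh, the last enzyme of noradrenaline synthesis, averaged 12.49, 12.21 and 12.44 in these groups and passed in neither comparison. Some arrays stood apart. Tissue replicates 2 and 3 had narrower distributions than the other arrays, with SDs of 2.14 and 1.93 against 2.31 to 2.42. Tissue replicate 3 was the highest tissue array for 18 of the 22 dim genes, and tissue replicate 2 for 3 of them. Of the 16 bright genes, tissue replicate 3 was the lowest tissue array for 6 and the highest for 4. The 3D replicate 1 was the highest 3D array for 12 of the 16 bright genes. In 2D, replicate 1 was the highest array for 12 of them and replicate 4 the lowest for 10. Their median deviations from the group mean were 0.65 and -0.39.

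Ionotropic receptors are ion channels opened by the transmitter itself. AMPA and kainate receptors are tetramers that depolarise the cell, NMDA receptors need glutamate together with glycine and pass calcium, and GABA-A and glycine receptors are pentamers that pass chloride. Metabotropic glutamate receptors and the GABA-B receptor act through G proteins and often lie on axon terminals, where they reduce transmitter release. Fast transmission within a sympathetic ganglion runs on acetylcholine, so these genes are known mostly from the brain and spinal cord.

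Some glutamate receptor genes, led by AMPA subunits, were higher in fresh tissue than in the cultures, and more of them passed against 3D than against 2D. Against 2D, 6 of the 38 genes were higher in tissue and 0 lower (limma, adjusted p under 0.05), where 9.87% of all genes were higher and 14.3% lower. Against 3D, 13 were higher and 1 lower, where 15.5% of all genes were higher and 20.1% lower. An unadjusted p under 0.05 was found for 18 receptor genes against 2D and 19 against 3D by limma, beside 40.9% and 47.7% of all genes, and for 14 and 15 by the methods' t-test, beside 36.7% and 43.7%. All 6 genes higher against 2D were among the 13 higher against 3D. Both comparisons use the same 4 tissue arrays. The count against 2D changed with single arrays. It was 3 without tissue replicate 2, 2D replicate 2 or 2D replicate 4 (7.89% of the receptor genes, where 4.91%, 4.77% and 5.55% of all genes were then higher), 4 without 2D replicate 1 and 10 without tissue replicate 4 (26.3%, where 11% of all genes were). Against 3D, 10 to 16 receptor genes were higher when single arrays were left out, with 10 higher and 0 lower without 3D replicate 1, where 11.6% and 15.7% of all genes were. Without tissue replicates 2 and 3, an alternative added after the data had been seen, 5 genes were higher than in 2D and 15 higher than in 3D, where 10.1% and 22.7% of all genes were. Of the called genes, 3 of the 6 and all 13 were among them (Gria3, Grin2c and Grik5 did not pass against 2D). In that alternative 1 gene was lower than in 2D and 3 lower than in 3D, where 12.3% and 24.6% of all genes were. Some genes below missed the threshold with all arrays and passed without 1 array. Except for Grin2a without tissue replicate 3, that array was the member of its group nearest the other group. Leaving it out had to widen the difference, so these passes are a description. The median log2 difference of the receptor genes was 0.46 against 2D and 0.45 against 3D, beside 0.03 for all genes in both comparisons. Of the ionotropic glutamate genes, 5 of 15 were higher against 2D, and 8 of 15 were higher and 1 lower against 3D. The metabotropic glutamate genes gave 1 of 6 and 2 of 6, and the GABA and glycine receptor genes 0 of 17 and 3 of 17. In bulk samples of this kind, fewer cells of a type and less RNA per cell cannot be told apart.

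**Figure D1:**
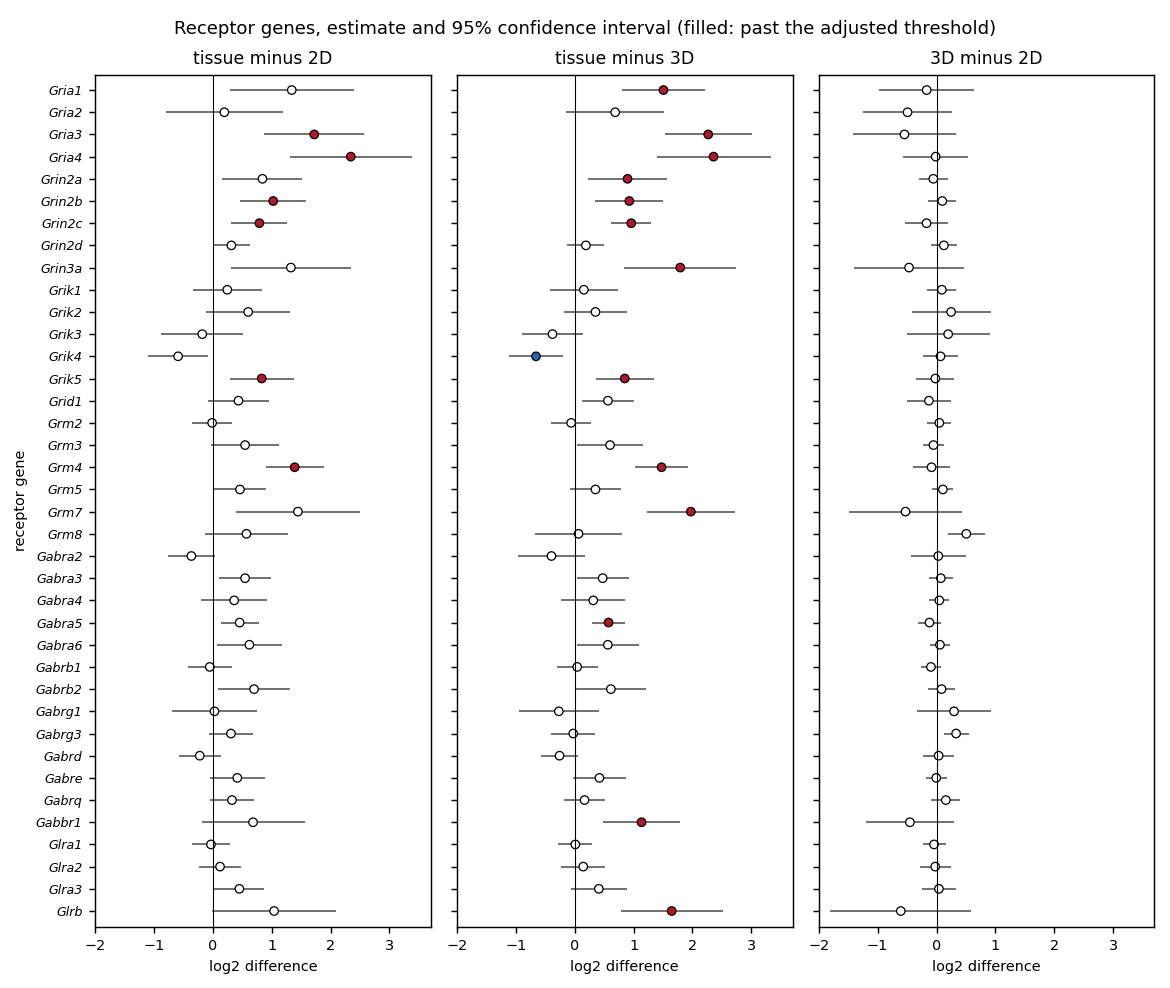
Estimated log2 difference (points) and 95% confidence interval (lines) of each of the 38 receptor genes for tissue minus 2D, tissue minus 3D and 3D minus 2D, 4 arrays per group. Filled points passed the adjusted threshold: 6 genes higher in tissue than in 2D, 13 higher and 1 lower in tissue than in 3D, and 0 between 3D and 2D.

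The starts of 3 of the 6 genes higher in tissue than in both cultures are in the reference promoter table (RefSeq, GRCm38.p6), and the 250 bases upstream are shown because these genes moved in the same direction. Capitals mark GC boxes, the letters GGGCGG or CCGCCC, read on both strands. The window of Gria4 lies at chr9:4796235-4796484 on the minus strand, that of Grin2c at chr11:115267244-115267493 on the minus strand and that of Grik5 at chr7:25072370-25072619 on the minus strand.
Gria4: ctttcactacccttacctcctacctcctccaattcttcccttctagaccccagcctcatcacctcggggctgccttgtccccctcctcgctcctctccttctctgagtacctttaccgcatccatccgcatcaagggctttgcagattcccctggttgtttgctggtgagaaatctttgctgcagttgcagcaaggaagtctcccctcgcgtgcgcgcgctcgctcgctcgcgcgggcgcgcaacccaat
Grin2c: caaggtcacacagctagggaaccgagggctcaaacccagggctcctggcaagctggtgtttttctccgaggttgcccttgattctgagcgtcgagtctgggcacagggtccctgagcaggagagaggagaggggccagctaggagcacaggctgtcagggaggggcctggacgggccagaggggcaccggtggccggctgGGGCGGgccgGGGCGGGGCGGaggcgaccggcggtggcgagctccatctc
Grik5: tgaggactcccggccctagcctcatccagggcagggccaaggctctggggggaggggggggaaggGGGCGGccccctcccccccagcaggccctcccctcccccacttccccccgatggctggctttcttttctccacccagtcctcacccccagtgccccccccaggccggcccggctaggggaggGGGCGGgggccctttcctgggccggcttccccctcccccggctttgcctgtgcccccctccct
The window of Grin2c held 3 GC boxes, that of Grik5 held 2 and that of Gria4 held 0. Among 36 windows of 29 receptor genes, some of which overlap, 20 (55.6%) held a GC box, where 32.7% of 32851 windows of all genes did. A TATA motif, TATAAA on either strand, was in 4 of the 36 windows (11.1%) and in 12.4% of all windows, and was in none of the 3 shown. These matches describe letters and not binding.

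The AMPA receptor genes were the group with the largest differences. Gria4, which encodes GluA4, the subunit of rapidly gating AMPA channels, read 10.25, 10.18, 8.37 and 10.45 on tissue replicates 1 to 4, 7.82, 7.08, 7.48 and 7.44 in 3D and 8.09, 7.61, 7.09 and 7.09 in 2D. Every tissue array was above every culture array, although tissue replicate 3 lay well below the other tissue arrays. Gria4 averaged 9.81 ± 0.97 in tissue, 7.46 ± 0.30 in 3D and 7.47 ± 0.48 in 2D (SD, n = 4 each), and was 5.12-fold higher in tissue than in 3D (log2 difference 2.36, SE 0.43, limma, adjusted p = 0.00353) and 5.07-fold higher than in 2D (2.34, SE 0.46, adjusted p = 0.00889). A dimmer probe set of Gria4 was higher by 2.31 against 3D (limma, adjusted p = 1.08e-04) and by 2.23 against 2D (adjusted p = 0.00161), while another, at 4.46 in tissue, 4.46 in 3D and 4.56 in 2D, differed by 0.01 and -0.10 and passed in neither comparison.

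Gria3, which encodes GluA3, read 8.70, 9.42, 9.08 and 8.24 in tissue, 7.38, 6.30, 6.09 and 6.60 in 3D and 8.11, 7.09, 6.41 and 6.94 in 2D. The groups of arrays did not overlap, though 2D replicate 1 came close to tissue replicate 4. The gene was 4.81-fold higher in tissue than in 3D (log2 difference 2.27, SE 0.33, limma, adjusted p = 0.00114) and 3.30-fold higher than in 2D (1.72, SE 0.38, adjusted p = 0.0139). Without tissue replicates 2 and 3, an alternative added after the data had been seen, the difference from 2D was 1.33 (limma, adjusted p = 0.0794). A second probe set of Gria3 was higher than 3D by 0.57 (limma, adjusted p = 0.0366) and differed from 2D by 0.10 (adjusted p = 0.722), so that the size of the difference depends on the probe set.

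Gria1, which encodes GluA1, a subunit that is brought to synapses in some forms of plasticity, read 8.53, 8.29, 7.15 and 8.78 in tissue, 6.78, 6.57, 6.73 and 6.64 in 3D and 7.57, 6.99, 7.18 and 5.65 in 2D. The 3D arrays lay close together and below all tissue arrays, whereas 2 of the 2D arrays reached above tissue replicate 3. Tissue was 2.84-fold higher than 3D (log2 difference 1.51, SE 0.31, limma, adjusted p = 0.00691), and differed from 2D by 1.34 (SE 0.46, adjusted p = 0.0667), which did not pass. Without tissue replicate 3 that difference was 1.69 (limma, adjusted p = 0.0254). A second probe set of Gria1 differed from 3D by 1.06 (limma, adjusted p = 0.0980) and from 2D by 0.90 (adjusted p = 0.242), and passed in neither comparison. Gria2, which encodes GluA2, the subunit whose edited form keeps calcium out of the channel, read 9.03, 8.55, 7.42 and 9.09 in tissue, 8.39, 7.69, 7.75 and 7.51 in 3D and 9.09, 8.58, 8.18 and 7.46 in 2D. Its groups overlapped, with tissue replicate 3 and 2D replicate 4 both low.

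For Gria2 the probe sets disagreed. The probe set that stands for the gene differed between tissue and 3D by 0.69 (95% confidence interval -0.15 to 1.52, limma, adjusted p = 0.171) and between tissue and 2D by 0.20 (-0.80 to 1.19, adjusted p = 0.754). Without tissue replicate 3 the difference from 3D was 1.06 (limma, adjusted p = 0.00766). A second probe set was higher in tissue by 2.16 against 3D (limma, adjusted p = 0.00107) and by 1.42 against 2D (adjusted p = 0.0361). The remaining probe set was higher by 0.80 against 3D (limma, adjusted p = 0.0304) and differed from 2D by 0.73 (adjusted p = 0.0633). All 3 Gria2 probe sets were thus higher in tissue by their means, and which of them passed varied.

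**Figure D2:**
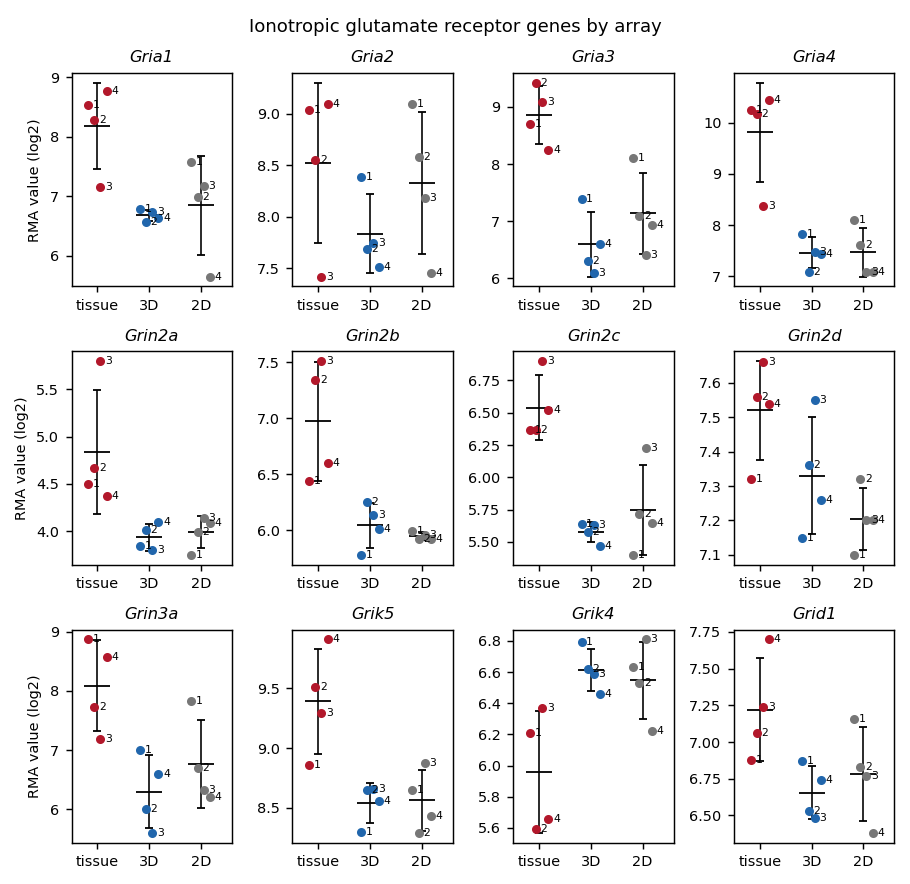
RMA expression level (log2) of 12 ionotropic glutamate receptor genes on each array of tissue, 3D and 2D, with points numbered by replicate; the horizontal line is the mean and the bar 1 SD (n = 4), and each panel has its own vertical scale. The tissue arrays of Gria3, Gria4, Grin2a, Grin2b and Grin2c lie above all culture arrays, and tissue replicate 3 stands low for Gria4, at 8.37, and high for Grin2a, at 5.80.

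Of the 5 NMDA receptor genes with a probe set, 2 were higher in tissue than in 2D and 4 higher than in 3D. Grin2b, which encodes GluN2B, a glutamate-binding subunit typical of young neurons, read 6.44, 7.34, 7.51 and 6.60 in tissue, 5.78, 6.25, 6.14 and 6.01 in 3D and 5.99, 5.92, 5.96 and 5.92 in 2D. All tissue arrays were above all culture arrays, with tissue replicates 2 and 3 the highest. The gene was 1.90-fold higher than in 3D (log2 difference 0.93, SE 0.26, limma, adjusted p = 0.0228) and 2.03-fold higher than in 2D (1.03, SE 0.25, adjusted p = 0.0204). Its dimmer probe sets differed from 3D by 0.47, 0.40 and -0.04 (limma, adjusted p = 0.0267, 0.0846 and 0.818). From 2D they differed by 0.49, 0.54 and 0.06 (adjusted p = 0.0420, 0.0492 and 0.761). Grin2b no longer passed against 2D without tissue replicate 2 and without 2D replicates 1, 2 or 4 in turn (limma, adjusted p = 0.0638, 0.0509, 0.0585 and 0.0546), nor against 3D without tissue replicate 2 and without 3D replicates 1, 3 or 4 (adjusted p = 0.0674, 0.0668, 0.0508 and 0.0621).

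Grin2c, which encodes GluN2C, known best from cerebellar granule cells, read 6.37, 6.37, 6.90 and 6.52 in tissue, 5.64, 5.58, 5.63 and 5.47 in 3D and 5.40, 5.72, 6.23 and 5.65 in 2D. Tissue was above both cultures on every array, and 2D replicate 3 came nearest to it. The gene was 1.95-fold higher than in 3D (log2 difference 0.96, SE 0.15, limma, adjusted p = 0.00169) and 1.73-fold higher than in 2D (0.79, SE 0.21, adjusted p = 0.0295). Grin2c did not pass against 2D without tissue replicate 2 and without 2D replicates 1, 2 or 4 in turn (limma, adjusted p = 0.0585, 0.0827, 0.0790 and 0.0792).

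Grin3a, which encodes GluN3A, a glycine-binding subunit that lowers the calcium permeability of NMDA receptors, read 8.87, 7.72, 7.19 and 8.58 in tissue, 7.0, 6.0, 5.60 and 6.59 in 3D and 7.83, 6.70, 6.32 and 6.21 in 2D. Tissue lay above 3D on every array and overlapped 2D, whose replicate 1 exceeded tissue replicates 2 and 3. Tissue was 3.46-fold higher than 3D (log2 difference 1.79, SE 0.42, limma, adjusted p = 0.0115) and differed from 2D by 1.33 (SE 0.45, adjusted p = 0.0638), which passed without tissue replicate 3 (1.63, adjusted p = 0.0317) or without 2D replicate 1 (1.68, adjusted p = 0.0323). The other probe sets of Grin3a were also higher than 3D, by 1.82 and 0.64 (limma, adjusted p = 0.0136 and 0.0424).

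Grin2a, which encodes GluN2A, the glutamate-binding subunit that replaces much of GluN2B as the brain matures, was dim, at 4.50, 4.67, 5.80 and 4.37 in tissue, 3.84, 4.01, 3.80 and 4.10 in 3D and 3.75, 3.99, 4.14 and 4.09 in 2D. The tissue arrays were above all culture arrays, and tissue replicate 3 was far above the other tissue arrays. The difference from 3D was 0.90 (SE 0.29, limma, adjusted p = 0.0436) and was lost without tissue replicate 2 and without each 3D array in turn (adjusted p between 0.0781 and 0.104). Against 2D it was 0.84 (SE 0.30, limma, adjusted p = 0.0724), and it passed without tissue replicate 3 (0.52, adjusted p = 0.0365) or without tissue replicate 4 (1.0, adjusted p = 0.0472). Grin2d, which encodes GluN2D, averaged 7.52 ± 0.14 in tissue, 7.33 ± 0.17 in 3D and 7.20 ± 0.09 in 2D (SD, n = 4 each), and its difference from 3D (0.19, limma, adjusted p = 0.303) and from 2D (0.32, adjusted p = 0.121) did not pass.

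The kainate receptor genes went in both directions. Grik5, which encodes GluK5, a high-affinity subunit that forms channels only with GluK1, GluK2 or GluK3, read 8.86, 9.51, 9.29 and 9.91 in tissue, 8.30, 8.65, 8.66 and 8.56 in 3D and 8.65, 8.29, 8.88 and 8.43 in 2D. Tissue exceeded every 3D array, and only 2D replicate 3 reached the lowest tissue array. The gene was 1.80-fold higher in tissue than in 3D (log2 difference 0.85, SE 0.22, limma, adjusted p = 0.0174) and 1.78-fold higher than in 2D (0.83, SE 0.24, adjusted p = 0.0378). Grik5 did not pass against 2D without tissue replicate 2 or 4 and without 2D replicate 1, 2 or 4 (limma, adjusted p between 0.0569 and 0.106), and against 3D without tissue replicate 2 (adjusted p = 0.0508) or 3D replicate 1 (adjusted p = 0.0537).

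Grik4, which encodes the related high-affinity subunit GluK4, was lower in tissue, at 6.21, 5.59, 6.37 and 5.66, against 6.79, 6.62, 6.59 and 6.46 in 3D and 6.63, 6.53, 6.81 and 6.22 in 2D. Every tissue array lay below every 3D array, whereas tissue replicate 3 was above 2D replicate 4. Tissue was lower than 3D by 0.66 on the log2 scale (difference -0.66, SE 0.20, limma, adjusted p = 0.0332), the 1 receptor gene that was lower. The call was lost without tissue replicate 2 (-0.54, adjusted p = 0.0855), without tissue replicate 4 (-0.56, adjusted p = 0.0605) and without each 3D array in turn (adjusted p between 0.0618 and 0.0903), and also with the arrays centred on their bright probe sets (-0.38, adjusted p = 0.221). Against 2D the difference was -0.59 (SE 0.22, limma, adjusted p = 0.0842), and without tissue replicate 3 it was -0.73 (adjusted p = 0.0378).

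The subunits with which GluK4 and GluK5 assemble did not pass in either comparison. Grik3, which encodes GluK3, averaged 8.0 ± 0.32 in tissue, 8.38 ± 0.38 in 3D and 8.18 ± 0.62 in 2D, and Grik2, which encodes GluK2, averaged 6.41 ± 0.39 in tissue, 6.06 ± 0.34 in 3D and 5.81 ± 0.60 in 2D (SD, n = 4 each). Grik1, which encodes GluK1, was dim and averaged 5.04 ± 0.55 in tissue, 4.88 ± 0.16 in 3D and 4.79 ± 0.15 in 2D. Their 95% confidence intervals, from -0.89 to 0.14 for Grik3, -0.19 to 0.89 for Grik2 and -0.42 to 0.73 for Grik1 against 3D, leave room for differences in either direction. Grid1, which encodes GluD1, a synapse organiser of the delta family, read 6.88, 7.06, 7.24 and 7.70 in tissue, 6.87, 6.53, 6.48 and 6.74 in 3D and 7.16, 6.83, 6.77 and 6.38 in 2D. Tissue was above 3D on all arrays by a narrow margin, but the difference of 0.57 missed the threshold (SE 0.19, limma, adjusted p = 0.0510); without tissue replicate 1 it was 0.68 (adjusted p = 0.0273).

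Among the metabotropic glutamate receptors the difference lay in group III, which acts through inhibitory G proteins at axon terminals. Grm4, which encodes mGlu4, read 7.90, 7.97, 8.68 and 7.99 in tissue, 6.84, 6.51, 6.77 and 6.52 in 3D and 6.82, 6.91, 6.88 and 6.37 in 2D. The tissue arrays stood about a whole log2 unit or more above all culture arrays. Grm4 averaged 8.14 ± 0.37 in tissue, 6.66 ± 0.17 in 3D and 6.74 ± 0.25 in 2D (SD, n = 4 each), and was 2.78-fold higher than in 3D (log2 difference 1.48, SE 0.20, limma, adjusted p = 7.32e-04) and 2.62-fold higher than in 2D (1.39, SE 0.22, adjusted p = 0.00344). It had the smallest adjusted p of the 38 genes in both comparisons.

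Grm7, which encodes mGlu7, a receptor of low glutamate affinity placed at the release site itself, read 10.71, 11.65, 11.50 and 10.36 in tissue, 9.61, 9.16, 8.53 and 9.03 in 3D and 10.29, 9.73, 10.12 and 8.30 in 2D. Tissue exceeded all 3D arrays and, narrowly, all 2D arrays, and 2D replicate 4 was far below the other 2D arrays. The gene was 3.92-fold higher in tissue than in 3D (log2 difference 1.97, SE 0.33, limma, adjusted p = 0.00233), and the difference of 1.45 from 2D missed the threshold (SE 0.46, adjusted p = 0.0530); without tissue replicate 4 it was 1.68 (adjusted p = 0.0374). The other Grm7 probe sets differed from 3D by 0.31 and 0.14 and from 2D by 0.23 and 0.15, and none of these passed.

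Grm8, which encodes mGlu8, the remaining group III member measured, was dim and read 4.18, 4.88, 5.81 and 4.55 in tissue, 4.49, 5.16, 4.72 and 4.79 in 3D and 4.24, 4.39, 4.17 and 4.34 in 2D. Tissue overlapped both cultures, with tissue replicate 3 high. Grm2 and Grm3, the group II receptors, and Grm5, a group I receptor that signals through phospholipase C, were dim as well. Grm2 averaged 5.83 ± 0.21 in tissue, 5.89 ± 0.15 in 3D and 5.84 ± 0.06 in 2D, and Grm3 averaged 4.18 ± 0.54 in tissue, 3.58 ± 0.06 in 3D and 3.63 ± 0.12 in 2D (SD, n = 4 each). Grm5 averaged 4.04 ± 0.37 in tissue, 3.68 ± 0.09 in 3D and 3.58 ± 0.09 in 2D. Grm3 differed from 3D by 0.60 (limma, adjusted p = 0.0865), which passed without tissue replicate 1 (0.77, adjusted p = 0.0325), and none of these 3 passed in either comparison with all arrays.

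**Figure D3:**
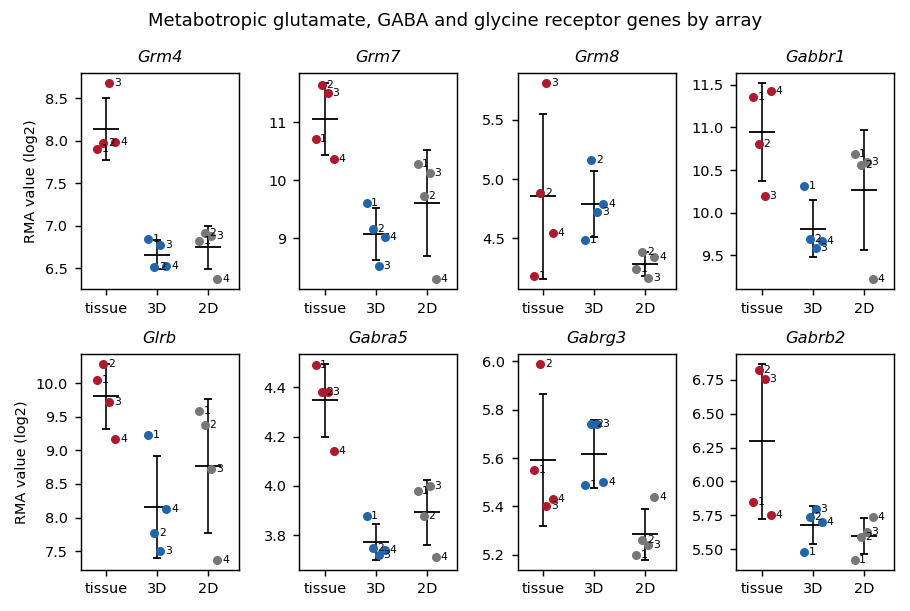
RMA expression level (log2) on each array of tissue, 3D and 2D for 3 metabotropic glutamate receptor genes and 5 GABA or glycine receptor genes, with points numbered by replicate; the horizontal line is the mean and the bar 1 SD (n = 4), and each panel has its own vertical scale. Grm4, Gabra5 and, narrowly, Grm7 separate tissue from both cultures, and 2D replicate 4 is the lowest 2D array for Grm4, Grm7, Gabbr1, Glrb and Gabra5.

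The GABA and glycine receptor genes that were bright were Gabbr1 and Glrb, and both were higher in tissue than in 3D. Gabbr1, which encodes the agonist-binding subunit of the GABA-B receptor, read 11.36, 10.80, 10.20 and 11.43 in tissue, 10.31, 9.69, 9.58 and 9.67 in 3D and 10.69, 10.56, 10.59 and 9.22 in 2D. The 3D replicate 1 reached just above tissue replicate 3, and 2D replicate 4 lay far below the other 2D arrays. Tissue was 2.20-fold higher than 3D (log2 difference 1.14, SE 0.29, limma, adjusted p = 0.0171), a call lost without 3D replicates 2, 3 or 4 in turn (adjusted p = 0.0518, 0.0528 and 0.0528). Against 2D the difference was 0.68 (95% confidence interval -0.19 to 1.56, limma, adjusted p = 0.210). The dimmer probe sets of Gabbr1 differed from 3D by 0.80, 0.60 and -0.24 (limma, adjusted p = 0.0376, 0.0482 and 0.473). From 2D they differed by 0.68, 0.43 and -0.39, and none of these passed.

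Glrb, which encodes the beta subunit that ties glycine receptors to the scaffold protein gephyrin, read 10.05, 10.28, 9.72 and 9.17 in tissue, 9.23, 7.77, 7.50 and 8.13 in 3D and 9.59, 9.37, 8.73 and 7.37 in 2D. Only 3D replicate 1 reached the lowest tissue array, whereas 2D replicates 1 and 2 overlapped tissue. Glrb was 3.13-fold higher in tissue than in 3D (log2 difference 1.65, SE 0.38, limma, adjusted p = 0.0112) and differed from 2D by 1.04 (SE 0.47, adjusted p = 0.130). Its second probe set was higher against both cultures, by 2.12 against 3D (limma, adjusted p = 0.00218) and by 1.60 against 2D (adjusted p = 0.0272). The alpha subunits that bind glycine, encoded by Glra1, Glra2 and Glra3, had means between 3.40 and 4.70 in the 3 groups and did not pass in either comparison.

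The 12 GABA-A receptor genes were all dim. Gabra5, which encodes the alpha5 subunit of receptors outside synapses, read 4.49, 4.38, 4.38 and 4.14 in tissue, 3.88, 3.75, 3.72 and 3.74 in 3D and 3.98, 3.88, 4.0 and 3.71 in 2D. All tissue arrays were above all culture arrays, at a level close to the bottom of the scale. The difference from 3D was 0.58 (SE 0.13, limma, adjusted p = 0.00838), a value that with cyclic loess normalization was 0.32 (adjusted p = 0.123). The difference from 2D was 0.46 (SE 0.14, limma, adjusted p = 0.0505), and without tissue replicate 4 it was 0.52 (adjusted p = 0.0364).

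Gabrb2, which encodes the beta2 subunit of the most common GABA-A receptors of the brain, read 5.85, 6.82, 6.76 and 5.75 in tissue, 5.48, 5.74, 5.80 and 5.70 in 3D and 5.42, 5.59, 5.63 and 5.74 in 2D. Tissue replicates 2 and 3, the arrays with narrow distributions, were high and the other tissue arrays close to the cultures. Gabrb2 did not pass against 3D (0.62, limma, adjusted p = 0.0995) or 2D (0.70, adjusted p = 0.0873), and without tissue replicate 4 both differences did, at 0.80 (adjusted p = 0.0350) and 0.88 (adjusted p = 0.0376). A dimmer probe set of the gene was higher by 0.58 against 3D (adjusted p = 0.0161) and by 0.81 against 2D (adjusted p = 0.00678). Gabra3, which encodes alpha3, differed by 0.48 from 3D and 0.55 from 2D. Gabra6, which encodes alpha6, the subunit of cerebellar granule cells, differed by 0.56 and 0.62. Neither passed with all arrays. Without tissue replicate 4, its lowest tissue array, Gabra3 did in both (limma, adjusted p = 0.0213 and 0.0244). So did Gabra6 without tissue replicate 1, its lowest (adjusted p = 0.0236 and 0.0335). Leaving out the lowest tissue array had to widen these differences, and neither gene passed without any other single array. The other 8 genes, Gabra2, Gabra4, Gabrb1, Gabrg1, Gabrg3, Gabrd, Gabre and Gabrq, differed by between -0.40 and 0.42 from 3D and between -0.37 and 0.42 from 2D, and none passed.

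Non-overlap of the arrays gave a similar picture. Against 2D, 10 of the 38 receptor genes had all tissue arrays above all 2D arrays (26.3%), as 15.3% of all genes did. Against 3D, 14 were above (36.8%), as 18.3% of all genes were, and Grik4 alone was below, as 24.1% of all genes were. For such a gene the exact permutation test, two-sided, gives p = 0.0286, the smallest that 70 splits of 8 arrays allow. Of the 44 further probe sets of receptor genes, 6 were higher in tissue than in 2D and 11 higher than in 3D, and 0 were lower in either. At their brightest probe sets, 9.87% and 15.5% of all genes were higher, and 14.3% and 20.1% lower. Among the further probe sets of called genes, 3 of 6 against 2D and 8 of 15 against 3D were called the same way.

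The receptor genes that were higher in tissue were mostly bright, by a mean level to which the tissue arrays themselves contributed. Of the 16 bright genes, 5 were higher in tissue than in 2D (31.2%) and 10 higher than in 3D (62.5%), where 10.5% and 16.9% of all bright genes were. In the other direction, 0 were lower than in 2D and 1 lower than in 3D, where 19.2% and 26.6% of all bright genes were. Their median log2 difference was 0.93 against 2D and 1.03 against 3D, while that of all bright genes was -0.16 and -0.15. Of the 22 dim receptor genes, 1 was higher than in 2D (4.55%) and 3 higher than in 3D (13.6%), where 8.36% and 11.7% of all dim genes were. The median of the dim receptor genes was 0.39 and 0.24, beside 0.23 and 0.21 for all dim genes, and tissue replicate 3 was high in most of them. With the level taken from the 8 culture arrays alone, an alternative added after the data had been seen, Grin2b and Grik2 became dim. Then 4 of 14 bright receptor genes were higher than in 2D (28.6%) and 9 of 14 higher than in 3D (64.3%), beside 9.73% and 16% of all bright genes.

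**Figure D4:**
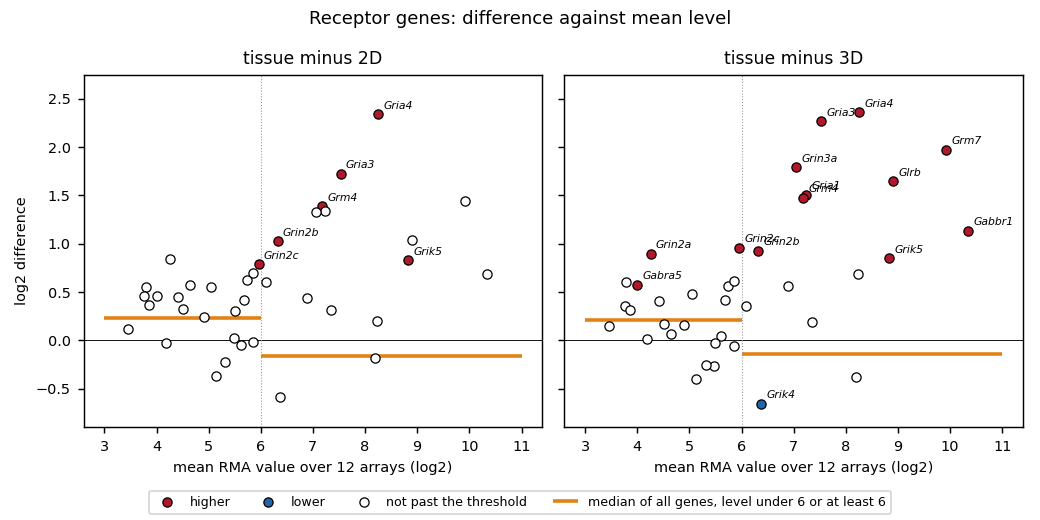
Log2 difference of each of the 38 receptor genes (vertical) against its mean RMA level over the 12 arrays (horizontal), for tissue minus 2D and tissue minus 3D; filled points passed the adjusted threshold, and orange lines give the median of all genes with a level under 6 or of at least 6. Most filled points lie at a level of at least 6, above the median of all bright genes, which is -0.16 and -0.15.

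Between the cultures no receptor gene passed. In 3D against 2D, 0 of 38 genes were higher and 0 lower (limma, adjusted p under 0.05), 2 had an unadjusted p under 0.05 and the methods' t-test gave 2, where 0.0165% of all genes passed the adjusted threshold, and without adjustment 13.1% passed by limma and 11.6% by the methods' t-test. The 2 genes were Grm8 and Gabrg3, both dim. Grm8, with the array values given above, averaged 4.79 ± 0.28 in 3D and 4.28 ± 0.10 in 2D (SD, n = 4 each), a log2 difference of 0.51 (SE 0.14, limma, adjusted p = 0.235), and 4 of 4 arrays in 3D were above all 2D arrays. Gabrg3, which encodes the gamma3 subunit of the GABA-A receptor, read 5.49, 5.74, 5.74 and 5.50 in 3D and 5.20, 5.26, 5.24 and 5.44 in 2D. Its groups also did not overlap, although 2D replicate 4 came within reach, and the difference was 0.33 (SE 0.09, limma, adjusted p = 0.258). Such a separation with 3D higher was found in 5.26% of the receptor genes and 4.49% of all genes, and a separation with 3D lower in 0 receptor genes and 2.87% of all genes.

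For several bright receptor genes the interval of the difference between 3D and 2D was wide. It ran from -1.81 to 0.59 for Glrb (difference -0.61), from -1.49 to 0.44 for Grm7 (-0.53), from -1.42 to 0.33 for Gria3 (-0.55), from -1.25 to 0.27 for Gria2 (-0.49) and from -1.20 to 0.30 for Gabbr1 (-0.45). For Gria4 it ran from -0.57 to 0.54 (-0.02), and for Grm4 from -0.40 to 0.23 (-0.09). In the first 5 of these genes 2D replicate 4 was low or 3D replicate 1 high within its group. Leaving out these 2 arrays, which were chosen after the data had been seen and for these values, had to widen the differences of these genes, so that the values that follow are a description. The arrays kept included 2D replicate 1, the highest 2D array for 12 of the 16 bright genes. Gabbr1 was then lower in 3D by 0.97 on the log2 scale (difference -0.97), Glrb by 1.43 (-1.43) and Grm7 by 1.14 (-1.14), and these 3 receptor genes (7.89%) passed, where 5.01% of all genes were then lower in 3D. On 2D replicate 4 neuronal genes in general were low: the summed level of 15 pan-neuronal genes was 14.58 there, in log2, the lowest of the 2D arrays, which reached 16.03.

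The proteins that escort and hold these receptors were compared in the same fits. For the counts of all lists that follow, 9.87% of all genes were higher and 14.3% lower in tissue than in 2D. Against 3D, 15.5% of all genes were higher and 20.1% lower. Of 12 genes of AMPA and kainate receptor auxiliary proteins, 3 were higher in tissue than in 2D and 5 higher than in 3D, and 0 lower. Cacng2, which encodes stargazin, the protein that carries AMPA receptors to the membrane, was higher than in 3D by 0.95 (limma, adjusted p = 0.00221). Shisa9, an AMPA receptor modulator, was higher by 1.94 against 3D (limma, adjusted p = 0.00511) and by 2.25 against 2D (adjusted p = 0.0241), and Cacng4 by 0.95 (adjusted p = 0.00546) and 0.76 (adjusted p = 0.0382). Cacng7 was higher than in 2D by 0.67 (limma, adjusted p = 0.0336).

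Of 18 genes of the postsynaptic scaffold, 3 were higher and 5 lower in tissue than in 2D, and 5 higher and 5 lower than in 3D. Shank3, a large scaffold protein of excitatory synapses, was higher by 1.53 against 3D (limma, adjusted p = 4.29e-04) and by 1.29 against 2D (adjusted p = 0.00467). Homer1 and Homer3, which link metabotropic glutamate receptors to calcium stores, were lower than in 2D, with differences of -0.94 (limma, adjusted p = 0.00472) and -1.42 (adjusted p = 0.00703). Dlg3 and Dlg1, which encode the scaffold proteins SAP102 and SAP97, were lower than in 3D, with differences of -1.13 (limma, adjusted p = 2.93e-04) and -1.26 (adjusted p = 4.31e-04). The scaffold genes thus went in both directions. Their median log2 difference was 0.18 against 2D and 0.31 against 3D. In these comparisons 9.87% and 15.5% of all genes were higher, and 14.3% and 20.1% lower.

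**Figure D5:**
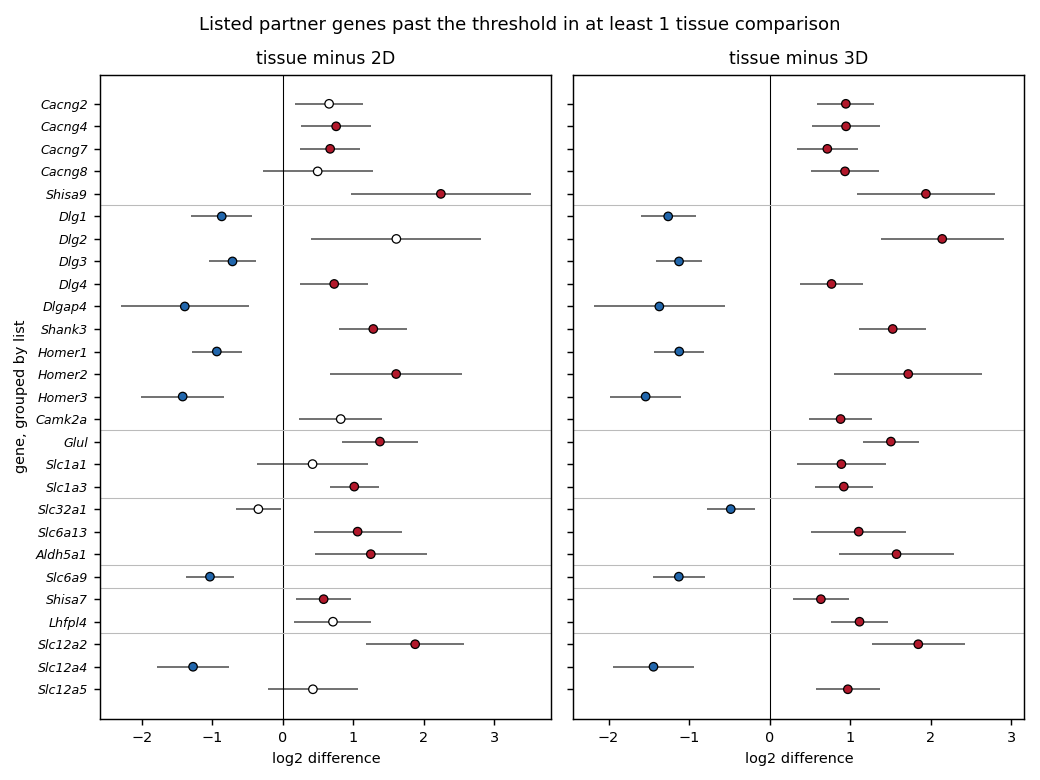
Log2 difference (points) and 95% confidence interval (lines) for tissue minus 2D and tissue minus 3D of the listed partner genes that passed the threshold in at least 1 of these comparisons; filled red points were higher and filled blue points lower in tissue, and grey lines part the lists. Shisa9, Shank3, Glul and Slc12a2 were higher and Slc6a9 and Slc12a4 lower in both.

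Genes that make, carry or remove the transmitters changed in both directions. Beside their counts, 9.87% of all genes were higher and 14.3% lower against 2D, and 15.5% and 20.1% against 3D. Of 8 genes of glutamate synthesis and transport, 2 were higher in tissue than in 2D and 3 higher than in 3D: Glul, the glutamine synthetase of glia, by 1.51 against 3D (limma, adjusted p = 1.94e-04) and by 1.38 against 2D (adjusted p = 0.00528), the glial glutamate transporter gene Slc1a3 by 0.92 (adjusted p = 0.00269) and 1.02 (adjusted p = 0.00314), and Slc1a1, which encodes a neuronal glutamate transporter, by 0.89 against 3D (adjusted p = 0.0217). Of 8 genes of GABA synthesis, transport and breakdown, 2 were higher against each culture, and Slc32a1, the vesicular transporter of GABA and glycine, was lower than in 3D (-0.48, limma, adjusted p = 0.0213). The 2 were Aldh5a1, an enzyme of GABA breakdown, at 1.58 against 3D (limma, adjusted p = 0.00565) and at 1.25 against 2D (adjusted p = 0.0351), and Slc6a13, a GABA transporter, at 1.11 (adjusted p = 0.0121) and 1.06 (adjusted p = 0.0268).

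Of 6 genes of glycine transport and breakdown, Slc6a9, the glycine transporter GlyT1, was lower in tissue, with a difference of -1.13 against 3D (limma, adjusted p = 6.07e-04) and one of -1.04 against 2D (adjusted p = 0.00273), and the others did not pass. Of 10 genes of the inhibitory scaffold, 1 was higher against 2D and 2 against 3D, near the 9.87% and 15.5% of all genes that were. They were Shisa7, a GABA-A receptor modulator (by 0.64 against 3D, limma, adjusted p = 0.0139, and by 0.58 against 2D, adjusted p = 0.0424), and Lhfpl4, which helps to place GABA-A receptors at synapses (1.12 against 3D, adjusted p = 9.42e-04). Among 6 chloride transporters, Slc12a2, which encodes NKCC1 and loads cells with chloride, was higher by 1.85 against 3D (limma, adjusted p = 9.16e-04) and by 1.88 against 2D (adjusted p = 0.00422). Slc12a5, which encodes the neuronal chloride exporter KCC2, was higher than in 3D by 0.97 (limma, adjusted p = 0.00328), and Slc12a4 was lower against both, at -1.44 (adjusted p = 0.00154) and -1.28 (adjusted p = 0.00603). In 3D against 2D, 0 genes passed in each of these 7 lists.

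Some lists of cell type markers differed between tissue and culture as well. Of all genes, 9.87% were higher and 14.3% lower in tissue than in 2D, and 15.5% higher and 20.1% lower than in 3D. Of 15 pan-neuronal genes, 4 were higher in tissue than in 2D and 8 higher than in 3D, and of 10 sympathetic neuron genes 4 and 8 were, with 0 lower. The median log2 difference of the pan-neuronal genes was 0.80 against 2D and 1.07 against 3D, and their summed level, in log2, was 15.49 to 16.51 in tissue, 15.03 to 15.68 in 3D and 14.58 to 16.03 in 2D. Satellite glia genes, 7 in all, gave 1 higher and 2 lower against 2D and 3 higher and 2 lower against 3D, with summed levels of 13.67 to 14.96, 14.64 to 14.75 and 14.19 to 14.74 in tissue, 3D and 2D. Skeletal muscle genes, 10 in all, were summed at 9.03 on tissue replicate 1 and at 11.80 to 12.63 on tissue replicates 2 to 4, against 8.75 to 8.92 in 3D and 8.68 to 8.89 in 2D. Of 8 endothelial genes, 4 were higher in tissue than in 2D and 6 higher than in 3D, with summed levels of 10.11 to 11.07 in tissue, 9.16 to 9.64 in 3D and 9.13 to 10.42 in 2D. All 7 cell division genes were lower in tissue than in both cultures, with a median log2 difference of -3.98 against 3D and -4.14 against 2D, and summed levels of 8.27 to 8.94 in tissue, 12.23 to 12.64 in 3D and 12.02 to 12.57 in 2D. Macrophage genes, 7 in all, gave 0 higher and 2 lower against 2D and 3 higher and 3 lower against 3D, fibroblast genes, 8 in all, gave 2 and 1 against 2D and 1 and 1 against 3D, and of 4 genes of myelinating Schwann cells 1 was higher against each culture. RMA values have no 0, so no marker can be called absent. The part of these markers in the receptor differences was not tested.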

How the data were processed

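The authors deposited 1 table of log2 expression levels for 12 Affymetrix Mouse Genome arrays, made from the scanner files with the RMA algorithm in Affymetrix Expression Console, which adjusts the background, normalizes by quantiles and sums up the probes of each probe set. Software versions are not given in the sources used here. The log2 values were used as deposited. Quantile normalization hides a shift shared by most genes, and arrays carry no read depth, so their number limits the precision. No scan date was used here, and batches were therefore left untested. The labels call the replicates biological, and whether ganglia of 1 litter were shared is not given.

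Of the probe sets, 64 controls were left out and 45037 tested; platform annotation gave 34945 of them 1 symbol, 932 several, and left 9160 unnamed here. Groups were compared in pairs, 8 arrays at a time, in R 4.3.3 with lmFit and eBayes of limma 3.58.1, after a test on simulated data. P-values were adjusted by Benjamini and Hochberg's method across the 45037 probe sets, at a threshold of 0.05. Permutation tests were exact and two-sided. Every receptor gene with a probe set may be named. Of each list of partner genes, the 3 with the smallest adjusted p among those past the threshold in each comparison are named, and of each marker list genes among the 3 of highest mean. The receptor genes, lists and tests were chosen with earlier results of these data known. Promoter sequences are from RefSeq (GRCm38.p6), which held 29 of the 40 genes. No 2 arrays were identical.

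Alternatives were 1 fit of the 12 arrays, cyclic loess, a filter keeping 26551 probe sets (level 6 or more on 4 or more arrays), centring on bright probe sets, the replicate number as a block, the mean or the most variable probe set of a gene, the t-test of the methods (adjusted and unadjusted), and leaving out each array.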

Additional observations from a re-analysis of the deposited data

Results flagged for a closer look

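In 9 of 114 groups of 4 arrays (38 receptor genes in 3 groups), 1 array lay so far from the others that its gap to the nearest, as a share of the range, passed Dixon's 95% critical value; chance alone gives about 1 such group in 20. Tissue replicate 3 was the array in 3 of them, low for Gria4 at 8.37 (the others 10.18 to 10.45) and high for Grm4 at 8.68 (7.90 to 7.99) and for Gabra4 at 4.87 (3.80 to 3.84). The 3D replicate 1 was the array in another 3, high for Gabbr1 at 10.31 (9.58 to 9.69) and low for Grm3 at 3.48 (3.6 to 3.62) and for Gabrq at 4.29 (4.55 to 4.60). In 2D, replicate 4 was low for Gabbr1 at 9.22 (10.56 to 10.69) and for Grm4 at 6.37 (6.82 to 6.91), and replicate 3 was high for Gabrg1 at 6.11 (5.03 to 5.18). Tissue replicate 3 also had the narrowest distribution of the 12 arrays, with an SD of 1.93.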

How the results depend on the processing

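No called difference of a receptor gene changed sign under any alternative. In 3D against 2D, 2 genes were higher by the methods' t-test without adjustment, and 3 were lower without 2D replicate 4 and 3D replicate 1 (chosen after the data had been seen, and for receptor values), as 5.01% of all genes were; leaving out single arrays gave 0. The 6 genes higher in tissue than in 2D became 15 in 1 fit of all 12 arrays, 12 with centring, 13 and 3 by the methods' t-test without and with adjustment, 3 without 2D replicate 4 and 3 to 10 without single arrays: 3 without tissue replicate 2, 2D replicate 2 or 2D replicate 4, 4 without 2D replicate 1, and 10 without tissue replicate 4. The 0 genes lower than 2D became 1 in the fit of 12 arrays, 3 with cyclic loess, 1 by the unadjusted t-test and 0 to 1 without single arrays. Without tissue replicates 2 and 3 (added after the data had been seen) they became 1, where 12.3% of all genes were lower. The 13 genes higher than 3D became 18 in 1 fit of all 12 arrays, 15 with centring and 14 and 10 by the methods' t-test without and with adjustment. Without single arrays they became 10 to 16. For the fit of 12 arrays, centring and the t-test, the share of all genes higher is not given here. The counts under these settings, against either culture, therefore cannot be set against such a share. The 1 gene lower than 3D became 2 with cyclic loess, 0 with centring, 0 by the adjusted t-test, 3 without tissue replicates 2 and 3 (where 24.6% of all genes were lower), 0 without 3D replicate 1 and 0 to 1 without single arrays. The cause of these shifts was not tested. Calls against both cultures for Gria4 and Grm4, and against 3D for Gria1, Gria3, Grin2c, Grin3a, Grm7 and Glrb, were kept under all alternatives run for them. Whether replicate numbers pair the arrays was not settled: deviations of same-numbered arrays correlated at -0.07 to 0.41. In 6 of 12 checks, 4 in each comparison, an array matched its own number best among the 4 possible. Replicate 1 did so in all 3 comparisons. With the replicate number as a block, 8 genes were higher against 2D, and 12 higher and 1 lower against 3D. Centring moved the median of all genes to 0.31 in both tissue comparisons and the share higher among called genes to 61.6% against 2D and 60.6% against 3D, beside 40.9% and 43.5% as deposited and 52.3% in both with cyclic loess; the median of the receptor genes was then 0.74 and 0.72 with centring, and 0.29 and 0.25 with cyclic loess. Dim probe sets lie near the floor of the scale, which limits what their differences can show.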
